A study of Arabidopsis thaliana with 32 samples.

Results

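The HECT ubiquitin ligase genes of Arabidopsis thaliana were followed as a family of 7: KAK (AT4G38600, also called UPL3), UPL4 (AT5G02880), UPL1 (AT1G55860), UPL2 (AT1G70320), UPL5 (AT4G12570), UPL6 (AT3G17205) and UPL7 (AT3G53090). They were chosen by gene identifier, as the named members of the family, with the calls described here already known, so the calls on them are given as a description and without a test. Of these 7 genes, 5 were among the 9114 genes named in the lists, and UPL1 and UPL7 were not. The study compared wild-type Col-0 seedlings with seedlings of tfiis-1, a mutant line for the elongation factor TFIIS. Both genotypes were grown in vitro, were harvested 14 days after stratification, and were either left unheated (0 min) or given 10 min, 30 min or 3 h of heat shock. ChIP-seq with an antibody against RNA polymerase II (RNAPII) phosphorylated at Ser2 of its C-terminal repeats (S2P) gave 3 ChIP libraries and 1 input library for each of the 8 combinations of genotype and time. The mutant is represented by 1 allele, and the sources used here do not name the temperature.

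Ubiquitin reaches a protein through a chain of enzymes: an E1 activates it, an E2 carries it, and an E3 ligase chooses the target. HECT ligases differ from most E3 enzymes in that they take ubiquitin onto a cysteine of their own before passing it on. KAK restrains trichome branching and the rounds of endoreduplication behind it, and the bHLH trichome regulators GL3 and EGL3 are among its known targets. UPL4 is the closest relative of KAK, UPL1 and UPL2 are very large and closely similar to each other, and UPL5 acts on the senescence regulator WRKY53. S2P marks polymerase that is elongating, and TFIIS lets polymerase that has slipped backwards cut its transcript and move on, and both are studied along the length of genes.

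The values are 8 lists of summits, one for each direction and time. A summit is the single base pair at which S2P signal was called higher in tfiis-1 than in Col-0 (a tfiis-1-higher summit) or the reverse (a Col-0-higher summit). The calls carry no values for single libraries: depth cannot be stated, and no spread between replicates stands behind any count. In whole seedlings, a change in the number of cells transcribing a gene and a change in polymerase per cell cannot be told apart. The lists hold differences and no levels, so the tissue could not be checked by marker genes. Positions are given in bp from the annotated gene start in the direction of transcription, or as a fraction of the gene from 0 (start) to 1 (end).

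HECT ligase genes were called mostly in the tfiis-1-higher direction, before heat and again after 30 min. At 0 min 4 of the 7 genes (KAK, UPL4, UPL2 and UPL6) were tfiis-1-higher, where 4.9% of all 27444 nuclear protein-coding genes were. At 10 min KAK alone was called, 1 of 7, against 10.9% of all genes. At 30 min 5 of 7 were called (KAK, UPL4, UPL2, UPL5 and UPL6), against 16.6%, and the same 5 were called at 3 h, against 23.7%. In the Col-0-higher direction 0 of 7 were called at 0 min (0.113% of all genes) and 0 of 7 at 10 min (0.251%). KAK and UPL6 were Col-0-higher at 30 min, when 3.16% of all genes were, and KAK, UPL2 and UPL6 at 3 h, when 10.8% were.

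These genes are long, with a median of 8605 bp against 2078 bp over all genes, and long genes were called more often. Among the 3440 genes at least as long as UPL5, the shortest member, tfiis-1-higher calls reached 10.6% before heat, 15.9% after 10 min, 37.0% after 30 min and 45.7% after 3 h. The 881 genes of at least 6000 bp, a class that holds all members except UPL5, had 15.6% at 0 min, then 16.2%, 48.1% and, at 3 h, 55.7%. Against that background, 5 of 7 at 30 min and 3 h is a share of 71.4%, while the 57.1% of 0 min stands further above 15.6%. The 14.3% of 10 min is close to its background. Col-0-higher calls on genes at least as long as UPL5 came to 0.0872%, 0.407%, 7.33% and 18.6% over the same times, and on genes of at least 6000 bp to 0.0%, 0.341%, 12.5% and 23.0%, beside 28.6% of the members at 30 min and 42.9% at 3 h. Over all times, 5 of 7 members were tfiis-1-higher at least once (29.8% of all genes, 52.4% of those at least as long as UPL5 and 61.1% of those of at least 6000 bp). For Col-0-higher calls it was 3 of 7 (12.2%, 21.3% and 26.9% in the same order), and for any of the 8 lists 5 of 7 (33.2%, 54.5% and 62.9%). With 7 genes, 1 gene more or less moves these shares by 14.3 percentage points.

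**Figure D1:**
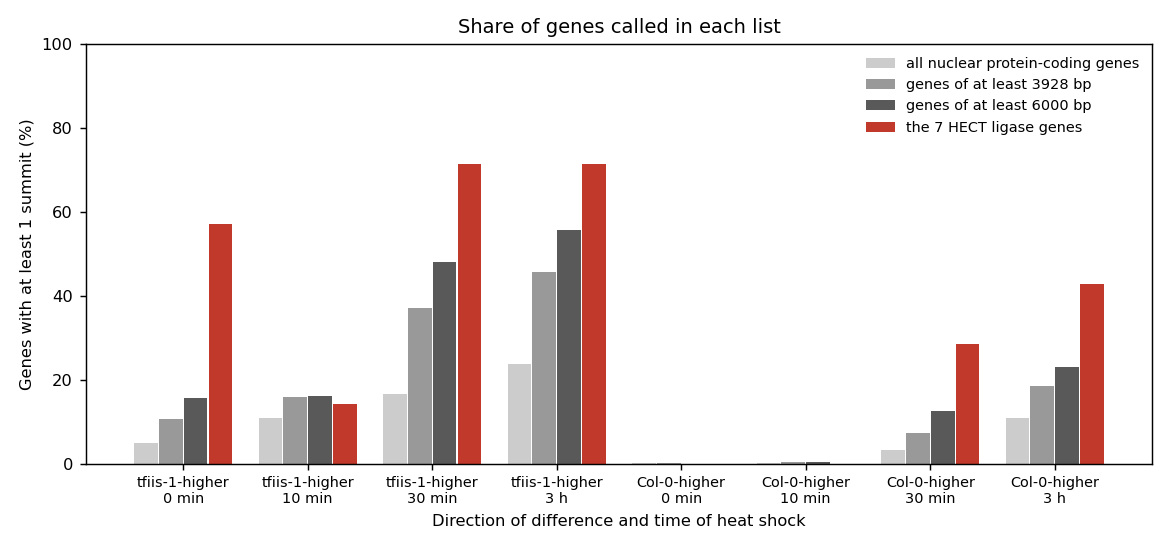
Percent of genes with at least 1 summit (vertical axis) in each of the 8 lists (horizontal axis), for all nuclear protein-coding genes, for genes of at least 3928 bp (the length of UPL5, the shortest member), for genes of at least 6000 bp and for the 7 HECT ligase genes. The grey bars climb with gene length in the tfiis-1-higher lists, and the HECT ligase bar is lower than the long-gene bar at 10 min (14.3% against 16.2%).

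The 5 called genes held 46 summits over the 8 lists, 41 of them tfiis-1-higher and 5 Col-0-higher. The lists themselves are unequal in this way. Over all genes, pairs of summit and gene numbered 8112 tfiis-1-higher and 936 Col-0-higher at 30 min, and 12165 and 3213 at 3 h. KAK held 18 of the 46 (39.1%), UPL2 10, UPL4 8, UPL6 7 and UPL5 3. Per kb of gene and over all lists, KAK had 1.98 summits, UPL4 1.11, UPL6 0.813, UPL5 0.764 and UPL2 0.758. KAK was in 6 of the 8 lists, UPL6 in 5, UPL2 in 4, UPL4 in 3 and UPL5 in 2. The members therefore differ widely among themselves, from KAK with summits at every time to UPL1 and UPL7 with none.

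**Figure D2:**
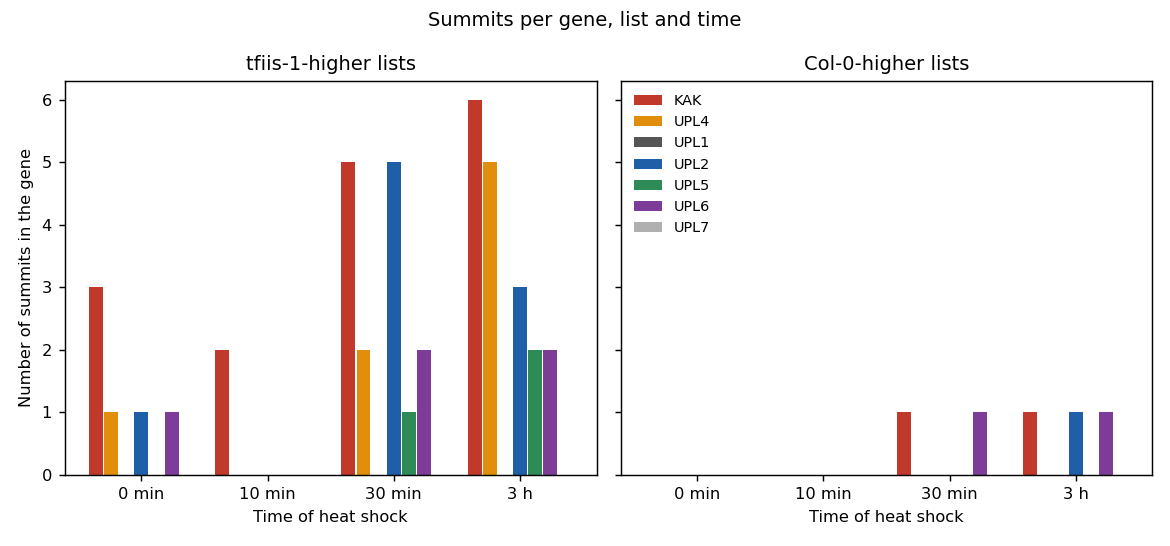
Number of summits (vertical axis) in each HECT ligase gene by time of heat shock (horizontal axis), for the tfiis-1-higher lists on the left and the Col-0-higher lists on the right. KAK rises from 3 to 6 tfiis-1-higher summits between 0 min and 3 h with 2 at 10 min, UPL4 from 1 to 5, and no gene has more than 1 Col-0-higher summit in a list.

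KAK (TAIR10 chromosome 4, 18040623 to 18049700, minus strand, 9078 bp) carried 3 tfiis-1-higher summits before heat, 2 after 10 min, 5 after 30 min and 6 after 3 h. At 0 min they lay 2522, 7286 and 7812 bp from the start. At 10 min both were elsewhere, at 3406 bp and at 8394 bp, the latter 683 bp before the gene end. At 30 min they lay at 3641, 4741, 5878, 7263 and 7791 bp. At 3 h the same 5 places were called again, at 3610, 4708, 5860, 7238 and 7732 bp, and a sixth summit appeared at 6684 bp. No summit of either direction lay in the first 2522 bp of KAK at any time.

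Several places in KAK were thus called repeatedly in libraries of different times. When summits within 150 bp of each other are joined across lists, the 18 summits of KAK fall on 10 sites, and 6 of these were called at 2 or more times in the same direction. The sites at 7238 to 7286 bp and at 7732 to 7812 bp were tfiis-1-higher at 0 min, 30 min and 3 h, and at 10 min neither was. The sites at 3610 to 3641 bp, 4708 to 4741 bp and 5860 to 5878 bp were called at 30 min and 3 h, and the sixth repeated site was the Col-0-higher one at the gene end. Neighbouring summits of KAK were 528 to 1385 bp apart at 30 min and 494 to 1152 bp apart at 3 h. In each of the 5 sites shared by 30 min and 3 h, the 3 h summit lay upstream of the 30 min summit, by 18 to 59 bp. Over all genes, 51.4% of the 3651 tfiis-1-higher summit pairs within 100 bp shifted upstream between these times, with a median shift of -2 bp. The list as a whole thus leaned little to either side. Whether the 5 KAK sites, all in 1 gene, differ from it was not tested. The size of the shifts in KAK is of the same order as the median shift size of 26 bp over all pairs.

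Col-0-higher summits appeared in KAK at the gene end, downstream of every tfiis-1-higher summit of the same time. At 30 min the summit lay 329 bp before the end (position 0.96) and at 3 h 293 bp before it (position 0.97). The 30 min summit had a score of 17.3 on the authors' own scale, which ranks 68 of the 896 summits of that list, whose median is 6.78. KAK overlaps BGAL14 (AT4G38590), a beta-galactosidase gene on the opposite strand, by 306 bp at this end. The 3 h summit lay 12 bp inside BGAL14 and was listed for both genes, while the 30 min summit lay 24 bp outside it. ChIP does not read the strand, so the 3 h call cannot be given to KAK rather than BGAL14. The 30 min summit lay only 36 bp from that of 3 h, so its listing for KAK alone is uncertain too.

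UPL4, the closest relative of KAK (7189 bp), was tfiis-1-higher at 0 min, 30 min and 3 h and never Col-0-higher. Its single summit at 0 min lay 4487 bp from the start, at TAIR10 chromosome 5, 666423. At 30 min it had summits at 2996 and 3696 bp. At 3 h both were called again, at 3001 and 3736 bp, with further summits at 245, 1430 and 4658 bp. The gain between 30 min and 3 h was therefore on both sides of the earlier pair, and the most upstream summit was 245 bp from the start. The last 2530 bp of UPL4 held no summit. Past the middle of the gene lay 4 of its 8 tfiis-1-higher summits, beside 12 of 16 in KAK.

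UPL1 (13369 bp) and UPL2 (13199 bp) differ in these lists although their lengths are nearly equal: UPL1 had no summit and UPL2 had 10. UPL2 carried 1 tfiis-1-higher summit at 0 min, 871 bp from the start. At 30 min it carried 5, at 767, 1098, 1580, 4410 and 10278 bp. At 3 h it carried 3, at 137, 3759 and 4393 bp. Of these 9 summits, 8 lay before the middle of the gene, and the summit at 4393 bp at 3 h was 17 bp from the one of 30 min. A Col-0-higher summit was called at 3 h, 1580 bp before the end (position 0.88), further from the end than those of KAK and UPL6. The sources used here do not say how reads fitting both UPL1 and UPL2 were placed, so the contrast between these copies is uncertain. Of the 34 other genes within 10% of the length of UPL1, 11 (32.4%) were likewise in none of the 8 lists.

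UPL6 (TAIR10 chromosome 3, 5873051 to 5881655, plus strand, 8605 bp) had its tfiis-1-higher summits near the start and its Col-0-higher summits at the very end. Before heat, its tfiis-1-higher call was at 1093 bp. At 30 min the summits lay at 275 and 1008 bp, and at 3 h at 1043 and 2506 bp. The site at 1008 to 1093 bp was thus called at 0 min, 30 min and 3 h, like the pair of sites in KAK. All 5 tfiis-1-higher summits lay in the first 0.29 of the gene. The Col-0-higher summit lay 75 bp before the end at 30 min and 21 bp before it at 3 h, and the 30 min summit had a score of 14.6, rank 113 of 896. Between 2506 and 8529 bp UPL6 held no summit.

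UPL5, the shortest member (3928 bp), had no summit at 0 min and 10 min. It was tfiis-1-higher at 30 min, 165 bp before the gene end (position 0.96). At 3 h this site was called again, 171 bp before the end, together with a summit 217 bp from the start. No other member had a tfiis-1-higher summit within 171 bp of its end; the Col-0-higher site of UPL6 lay in that stretch. UPL7 (6184 bp) was in none of the lists, as were 247 (42.6%) of the 580 other genes within 10% of its length.

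**Figure D3:**
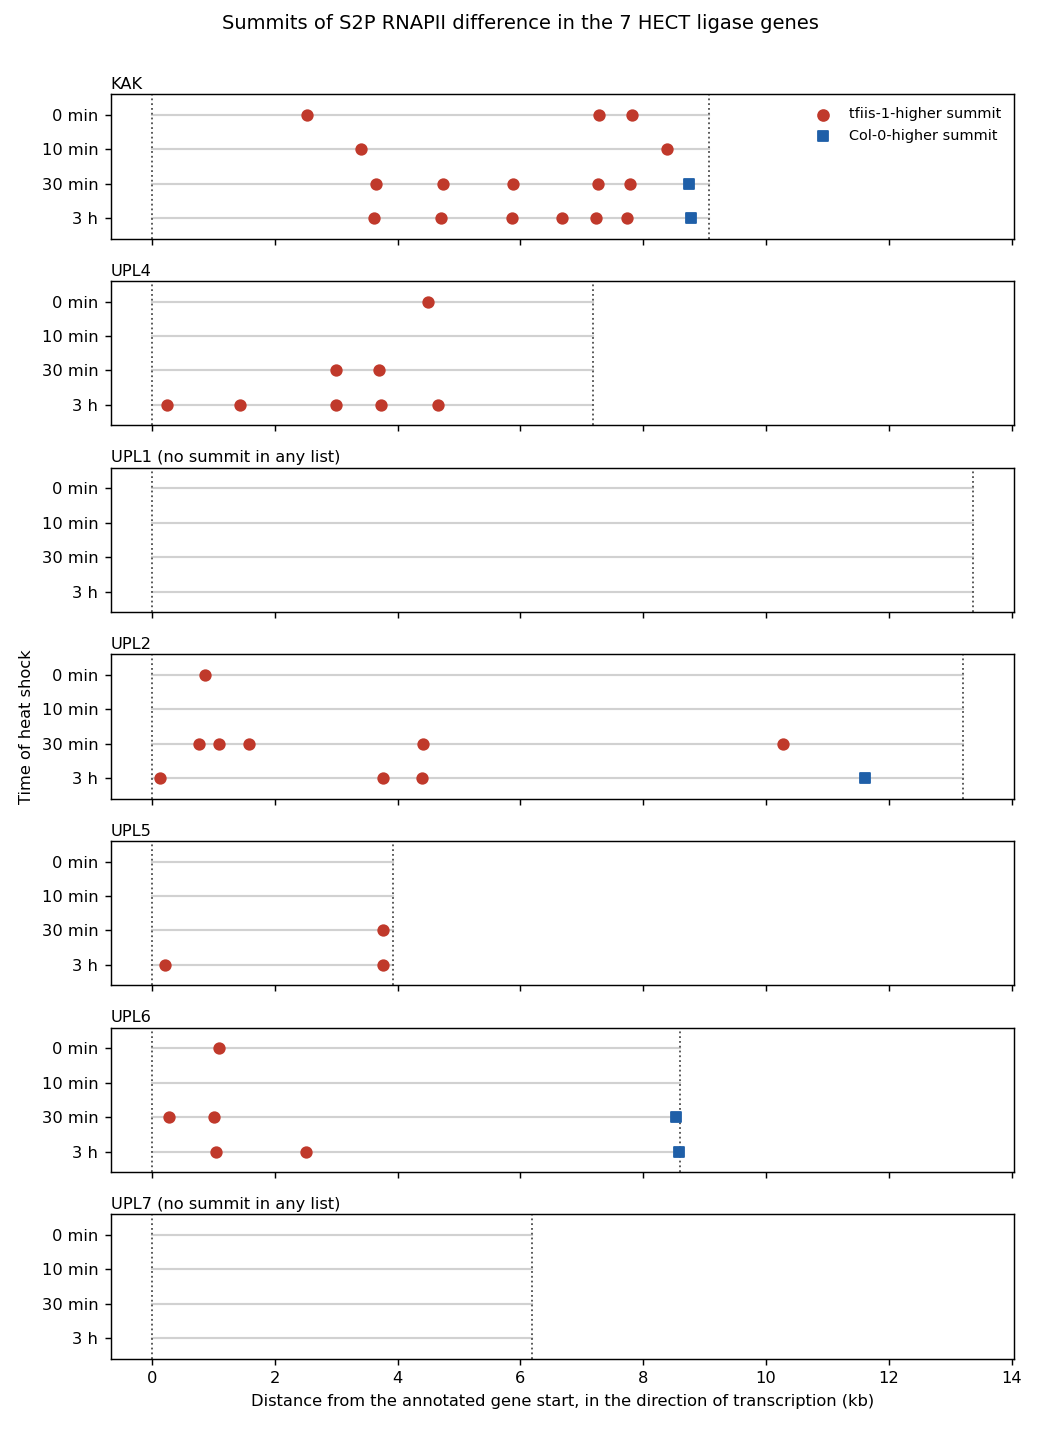
Position of each summit along the 7 HECT ligase genes, in kb from the annotated start in the direction of transcription (horizontal axis), by time of heat shock (rows); dotted lines mark the annotated start and end. Circles are tfiis-1-higher and squares Col-0-higher summits; each square lies to the right of every circle of its row, and the KAK circles of 30 min and 3 h stand above each other at 5 sites.

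Across the family, the tfiis-1-higher summits did not share one place in the gene. The share past the middle was 12 of 16 in KAK, 4 of 8 in UPL4, 2 of 3 in UPL5, 1 of 9 in UPL2 and 0 of 5 in UPL6. Over all genes, it was 47.3% of 25656 tfiis-1-higher pairs of summit and gene at the 4 times, and in genes of at least 6000 bp it was 28.5% of 3141. A site called at several times counts once for each time, in the members and over all genes. By this count KAK is on the downstream side of the long genes, and UPL2 and UPL6 are on the upstream side. Before heat, the median over the family's 6 tfiis-1-higher summits was position 0.45, beside 0.40 in the whole list and 0.25 in genes of at least 6000 bp. After 10 min the median of 2 was 0.65, beside 0.78 in the list and 0.52 in the long genes. After 30 min the median of 15 was 0.42, beside 0.51 and 0.38, and after 3 h the median of 18 was 0.41, beside 0.40 and 0.26. The family median was thus further downstream than that of the long genes at each time, and on either side of the whole list. Without KAK it was 0.13 at 0 min, 0.23 at 30 min and 0.29 at 3 h, so the family median rests on that gene.

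The order of the directions was the same in each member that had both. All tfiis-1-higher summits lay upstream of the Col-0-higher summit in KAK and UPL6 at 30 min, and in KAK, UPL2 and UPL6 at 3 h. This order is general: it held in 396 of the 404 genes called both ways at 30 min and in 1536 of the 1578 called both ways at 3 h. The median position of Col-0-higher summits was 0.98 after 30 min (2 summits) and 0.97 after 3 h (3 summits), beside 0.95 in both whole lists and, in genes of at least 6000 bp, 0.98 and 0.97, equal to the members after rounding. From 30 min to 3 h the summit in UPL6 lay 54 bp closer to the gene end, and the one at the border of KAK and BGAL14 36 bp closer to the end of KAK. Over all 443 such pairs the median shift was 5 bp towards the end and the median size of a shift 27 bp.

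Repeated sites were found in every called member. The 46 summits fell on 30 sites, of which 13 were called at 2 or more times in 1 direction (6 in KAK, 2 each in UPL4, UPL2 and UPL6, and 1 in UPL5), and 0 sites were called in both directions. Such shares of sites were not computed over all genes. Among all genes called in both lists, 0.693% of 2596 tfiis-1-higher summits of 30 min had a Col-0-higher summit of 3 h within 100 bp. For tfiis-1-higher summits of 10 min, again in genes also Col-0-higher at 3 h, it was 25.1% of 1620. Of the 15 tfiis-1-higher summits of 30 min in the HECT ligase genes, 10 (66.7%) had a tfiis-1-higher 3 h summit within 100 bp. Over all genes called at both times, 51.8% of 7045 did, and 42.1% of 1248 in those of at least 6000 bp. Of the 6 summits of 0 min, 3 had a 30 min summit that close, against 49.4% of 1225 over all genes called at both times. The 2 summits of KAK at 10 min had no summit of another time within 100 bp. Over all genes tfiis-1-higher at both 10 min and 30 min, 34.7% of 2544 summits of 10 min had a 30 min summit that close.

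KAK had more summits than most genes of its size. At 0 min, 25 of the 1345 tfiis-1-higher genes had 3 summits or more, KAK among them, and at 3 h 38 of 6498 had 6 or more. Of 148 other genes within 10% of the length of KAK, 1 had as many before heat, 7 after 10 min, 20 after 30 min and 6 after 3 h. The median over those 148 genes was 0 summits at 0 min, 1 at 30 min and 2 at 3 h. UPL4 with 5 summits at 3 h was equalled or exceeded by 29 of 360 genes near its length, and UPL2 with 5 at 30 min by 5 of 34. UPL6 was ordinary by this count: 81 of 173 genes near its length had 2 or more summits at 3 h. KAK was tfiis-1-higher at all 4 times, as were 1.96% of all genes and 6.58% of genes of at least 6000 bp.

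**Figure D4:**
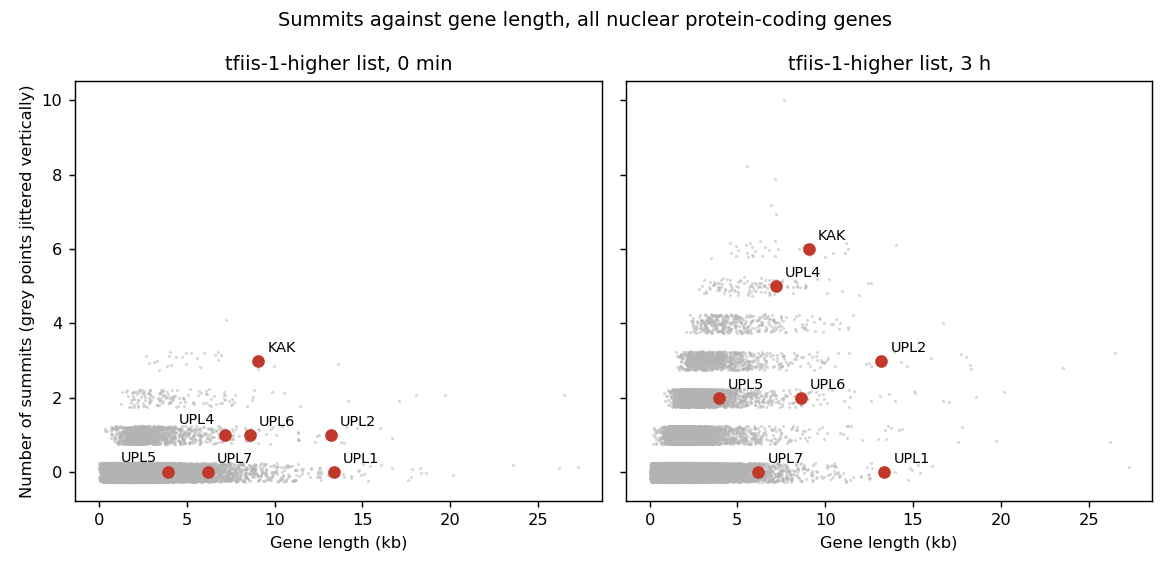
Number of tfiis-1-higher summits (vertical axis) against gene length in kb (horizontal axis) for all nuclear protein-coding genes, at 0 min on the left and 3 h on the right; grey points are genes, jittered vertically, and red points are the HECT ligase genes. KAK lies at the upper edge of genes of its length at both times (3 and 6 summits), while UPL1 and UPL7 lie at 0.

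Other genes had patterns close to those of single members, measured as the sum of absolute differences in summit number over the 8 lists. The nearest to KAK was GC6 (AT3G27530), a golgin gene, with 2, 3, 5 and 6 tfiis-1-higher summits across the 4 times and 1 Col-0-higher summit each at 30 min and 3 h, a difference of 2. AT1G52360 and RRC1 (AT5G25060), a splicing-related gene of phytochrome signalling, followed at a difference of 4, which 7 genes reached or bettered. AT5G16280 had the same 8 numbers as UPL4, and AT1G48490 and MRL1 (AT4G34830) differed by 1, with 20 genes at 1 or less. For UPL2 the nearest were the chromatin remodeler gene CHR5 (AT2G13370), the ubiquitin ligase gene PRT6 (AT5G02310) and emb2734 (AT5G19820), each at a difference of 1, which 8 genes reached. For UPL6, MAF3 (AT5G65060), AT4G21660 and ATSTE24 (AT4G01320) had the same 8 numbers, as 5 genes did in all. Where genes tied, those nearest in length are named. No member was among the 3 nearest genes of another: UPL2 differed from KAK by 8, rank 89 among all genes, and UPL4 by 10, rank 289.

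The rest of the ubiquitin and proteasome pathway was read from a list of 71 genes. Of these, 18 (25.4%) were tfiis-1-higher before heat, 23 (32.4%) after 10 min, 43 (60.6%) after 30 min and 57 (80.3%) after 3 h, beside the 4.9%, 10.9%, 16.6% and 23.7% of all genes given above. Col-0-higher pathway genes numbered 0 before heat, 0 after 10 min, 14 (19.7%) after 30 min and 21 (29.6%) after 3 h, beside 0.113%, 0.251%, 3.16% and 10.8% of all genes. Of the 71 genes, 26 are at least 4000 bp long. More of the pathway genes were tfiis-1-higher at 10 min than at 0 min, as was so over all genes. Among the 26 pathway genes of at least 4000 bp the number fell, from 8 at 0 min to 6 at 10 min. The number of HECT ligase genes also fell, from 4 to 1. Long genes as a whole did not fall. The share rose from 10.6% to 15.9% of genes at least as long as UPL5, and from 15.6% to 16.2% of those of at least 6000 bp. Whether these times differ was not tested.

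At the start of the cascade, the E1 gene UBA1 (AT2G30110) had 0, 1, 3 and 4 tfiis-1-higher summits from 0 min to 3 h. Of 12 E2 genes, 5 (41.7%), 7 (58.3%), 8 (66.7%) and 11 (91.7%) were tfiis-1-higher in that order of times. Over all genes it was 4.9%, 10.9%, 16.6% and 23.7%. UBC28 (AT1G64230) and UBC2 (AT2G02760) were each in 6 lists, as many as KAK, with 1 Col-0-higher summit at 30 min and at 3 h. Cullins, the scaffolds of multi-subunit E3 ligases, were tfiis-1-higher in 1, 0, 3 and 5 of 6 cases, and CUL1 (AT4G02570) had a summit at 3241 bp at 0 min, 3217 bp at 30 min and 3267 bp at 3 h, another site called repeatedly.

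Among 9 other single-chain E3 and E4 ligase genes, 1 (11.1%), 3 (33.3%), 7 (77.8%) and 8 (88.9%) were tfiis-1-higher from 0 min to 3 h. For this group and the next ones, the shares over all genes were 4.9%, 10.9%, 16.6% and 23.7%. The photomorphogenesis repressor COP1 (AT2G32950) had 1, 3, 2 and 4 tfiis-1-higher summits and a Col-0-higher one 5 bp before its end at 3 h. PRT6 (AT5G02310), the N-degron ligase with 9075 bp and so nearly the length of KAK, had 5 tfiis-1-higher summits at 30 min and 3 at 3 h, and a Col-0-higher one 58 bp before its end at 3 h. Of 26 genes of 26S proteasome subunits, 7 (26.9%), 8 (30.8%), 19 (73.1%) and 23 (88.5%) were tfiis-1-higher. RPT1A (AT1G53750) and RPN13 (AT2G26590) were each in 5 lists. Another 7 genes were of deubiquitinases and CDC48, which pulls ubiquitinated proteins apart. Of them, 3 (42.9%), 2 (28.6%), 4 (57.1%) and 5 (71.4%) were tfiis-1-higher, with 12 summits over all lists in UBP13 (AT3G11910).

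The last group held 9 genes, known targets of KAK or UPL5 and trichome regulators. Of these, 3 (33.3%) were in any list, close to the 33.2% of all genes. By time, 0, 2 (22.2%), 1 (11.1%) and 3 (33.3%) were tfiis-1-higher, beside 4.9%, 10.9%, 16.6% and 23.7% of all genes. GL3, EGL3, WRKY53 and LEC2 were in no list. TTG1 (AT5G24520), the WD40 partner of GL3 in trichome initiation, was tfiis-1-higher at position 0.96 after 10 min of heat, 0.62 after 30 min and 0.42 after 3 h, and Col-0-higher at 0.95 after 3 h. NPR1 (AT1G64280), the salicylic acid receptor of plant immunity, was tfiis-1-higher at 10 min and 3 h.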

How the data were processed

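S2P RNAPII ChIP-seq libraries (24 ChIP, 8 input; 9 PCR cycles, per the labels' protocols) stand behind 8 summit lists that the authors deposited. Bowtie2, FastQC, MACS3, deepTools and TAIR10 appear in the submitters' processing notes. The sources used here do not state their roles, thresholds, scaling, pooling, use of inputs, or the handling of duplicates and multi-mapped reads. Any of these can change which summits are called. The score in 2 of the deposited lists is the authors' value per summit, with no stated scale. It was used to rank summits within a list.

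Repeated lines were counted once; each KAK summit is listed 2 times. Positions used the RefSeq gene table of TAIR10.1, whose intervals equalled all 1010 given in the lists. Exons and introns were not used here, and no sequence was read. Position and merging steps were checked on made-up genes. No list holds a value per library, so no p-value, replicate error or depth is given.

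The members, the pathway list and the rule for named genes were chosen with earlier results of these data known. The rule names all 7 members, the 3 genes with the most similar summit numbers for each member called in at least 3 lists, and up to 3 genes per pathway group called in the most lists, of which some are given here. Of 71 pathway genes, 0 were dropped. GL3, EGL3, WRKY53 and LEC2 are named beyond that rule, as uncalled genes. Python 3.11.15, numpy 2.4.6, pandas 2.3.3 and matplotlib 3.10.9 were used. Alternatives changed the merging of summits, shared summits, the score range and the genes included.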

Additional observations from a re-analysis of the deposited data

How the results depend on the processing

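No paired analysis was possible because the lists hold no value per library, and for the same reason no replicate could be left out. Counts of HECT ligase genes stayed within 1.5 times of the reported number in each list with summits in 1 gene only. Joining UPL1 and UPL2 could not change these counts, because UPL1 had no summit. The members' summit counts stayed within 1.5 times with summits in 1 gene only, summits merged within 600 bp, and UPL1 and UPL2 left out. Merging within 300 bp could not change them, because summits of a member in 1 list were at least 331 bp apart. The highest-scoring 50% could be tried only in the 2 scored lists, Col-0-higher at 10 min, where no member was called, and at 30 min, where both genes and both summits were retained. With summits in 1 gene only, the Col-0-higher genes at 3 h fell from 3 to 2, the gene lost being KAK. Median positions, read as moved past 0.05 of the gene, depended on single genes. At 0 min the tfiis-1-higher median of 0.45 became 0.38 with 1 position per gene, 0.62 without UPL1 and UPL2 and 0.13 without KAK. At 30 min 0.42 became 0.52 without UPL1 and UPL2 and 0.23 without KAK, and at 3 h 0.41 became 0.52 and 0.29. Each of these medians rests on 18 or fewer summits. Joining sites within 75 bp, like merging within 600 bp chosen after seeing the data, gave 12 repeated sites in place of 13. Restricting the pathway list of 71 genes to its 26 genes of at least 4000 bp lowered the counts, since fewer genes were counted. Of these 26 genes, 8, 6, 18 and 21 were tfiis-1-higher from 0 min to 3 h, and 6 and 5 were Col-0-higher at 30 min and 3 h. The highest-scoring 50% of summits left 8 of 14 pathway genes Col-0-higher at 30 min. Depth, and so the precision of a call, is unknown.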
